A study of Danio rerio with 7 samples.

Results

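Keratins are the intermediate filament proteins of epithelia, and each filament is built from a type I keratin paired with a type II keratin. The skin of the zebrafish embryo has an outer periderm, which derives from the enveloping layer, over a layer of basal keratinocytes, and the layers make different keratins. On arrays that compared embryos injected with tbx5-MO with WT embryos, 9 keratin genes were read of 3794 genes with a name, through 13 probes of 43663. They were chosen by name from the deposited lists of probes at least 1.5-fold lower in the morphants on every array of a stage: krt91, krt1-19e, krt15, krt94 and krt1-19d through the list of 24 hpf, krt91, krt1-19e, krt18b and krt4 through that of 30 hpf, and krt8, krt92 and krt1-19d through that of 48 hpf. A low ratio at the stage of its own list is therefore what chose a keratin, and keratins in none of the lists are not analysed here. At 48 hpf the keratins lay on both sides of WT. krt91 and krt1-19e were 4.40-fold and 3.85-fold higher in the morphants, while krt92, krt8 and krt4 were 3.46-fold, 1.84-fold and 1.53-fold lower.

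Each array set whole AB strain embryos injected at the 1-cell stage with a morpholino that blocks the translation of tbx5 against WT embryos of the same stage that were not injected, as pools of embryos. The stages were 24 hpf and 30 hpf, with 2 arrays each, and 48 hpf, with 3. The morphant cDNA carried Cy5 and the WT cDNA Cy3 on every array, so dye and morpholino cannot be told apart. Nor can the injection, or a morpholino as such, be told apart from the block of tbx5, since the WT embryos were not injected. Every value is a log2 ratio of morphant over WT, below 0 where the morphants were lower. A ratio holds no level, so neither the amount of a keratin nor the presence of skin in a sample could be checked, and levels of different keratins cannot be compared. In RNA of whole embryos, fewer skin cells and less keratin RNA per cell cannot be told apart.

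The arrays agreed weakly with each other. Over all 43179 genes and single probes, Pearson's r between arrays of 1 stage was 0.07 at 24 hpf, 0.09 at 30 hpf and 0.07 to 0.13 at 48 hpf, and between arrays of different stages it was -0.03 to 0.07. Values that recur exactly on an array were frequent, with 11.4% to 67.3% of an array's values shared by more than 10 probes. Both probes of krt92 and those of krt91 and krt8 held values found only once on each array. The values of the other keratins were shared by up to 60 probes for krt15, up to 16 for krt1-19d, up to 15 for krt18b, up to 3 for krt1-19e and krt94 and up to 2 for krt4. The names of the arrays carry 1 of 2 number prefixes. Replicate 1 of 24 hpf and both arrays of 30 hpf share the first, and replicate 2 of 24 hpf and all arrays of 48 hpf share the second, so that prefix and stage cannot be told apart between 30 and 48 hpf. The array of replicate 2 of 24 hpf is named with the number 3 in the deposited list, a number no sample of that stage has, and was taken as replicate 2 since its listed values are those of replicate 2 in the value table.

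krt91 stood below WT at the earlier stages and above it at 48 hpf. Its log2 ratio was -1.73 and -2.38 on replicates 1 and 2 of 24 hpf, -1.80 and -2.16 on those of 30 hpf, and 2.11, 2.03 and 2.27 on replicates 1 to 3 of 48 hpf. All 4 arrays of the earlier stages lay below 0 and all 3 arrays of 48 hpf above it, with no overlap. The 24 hpf mean was -2.05 ± 0.46 (SD, n = 2) or 4.15-fold lower, the 30 hpf mean -1.98 ± 0.25 (SD, n = 2) or 3.93-fold lower, and the 48 hpf mean 2.14 ± 0.12 (SD, n = 3) or 4.40-fold higher. Within the second prefix, the 24 hpf array had -2.38 and the 48 hpf arrays 2.03 to 2.27. With the prefix as a block, its estimates were -2.30 at 30 hpf and 2.47 at 48 hpf. They rest on the gap between -1.73 and -2.38 at 24 hpf, the only stage with both prefixes. Nothing is therefore read from them on the part of the prefix. The lists of 24 and 30 hpf chose krt91 for its low values there, and its 48 hpf value was known when it was picked. No p is therefore printed for it at any stage, and its calls at 24 hpf under alternatives, given below, are not read. The single probe of krt91 lies at chr19:2843461-2843617, in coordinates of a build not given in the sources used here.

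krt4, a type II keratin of the superficial layer and a common marker of the periderm, took another course. Its log2 ratio was -0.53 and 0.12 on the 24 hpf arrays, -0.65 and -0.95 on the 30 hpf arrays, and -0.68, -0.76 and -0.41 on the 48 hpf arrays. It lay on both sides of 0 at 24 hpf and below 0 on all 5 later arrays, and the arrays of 30 and 48 hpf overlapped. Its means were -0.20 ± 0.46 (SD, n = 2), -0.80 ± 0.21 (SD, n = 2) and -0.61 ± 0.18 (SD, n = 3). The list of 48 hpf does not hold krt4, since replicate 3 at -0.41 was less than 1.5-fold lower. The other 2 arrays, at -0.68 and -0.76, lay past that limit of -0.58. At 24 hpf its adjusted p in limma's fit across all genes and single probes was 0.876, and as for krt91 no p is given for the 48 hpf value. Its probe is given at chr6:26284474-26284486 in the same coordinates, a shorter stretch than for any other keratin probe with coordinates.

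The difference between krt91 and krt4 within an array turned with the stage. krt91 minus krt4, in log2 units, was -1.20 and -2.50 on the 24 hpf arrays, -1.15 and -1.21 on the 30 hpf arrays, and 2.79, 2.79 and 2.68 on the 48 hpf arrays. krt91 was thus the lower of the pair on each of the first 4 arrays and the higher on each of the 3 at 48 hpf, where the mean difference was 2.75 ± 0.06 (SD, n = 3). It is a description of genes picked for this pattern.

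**Figure D1:**
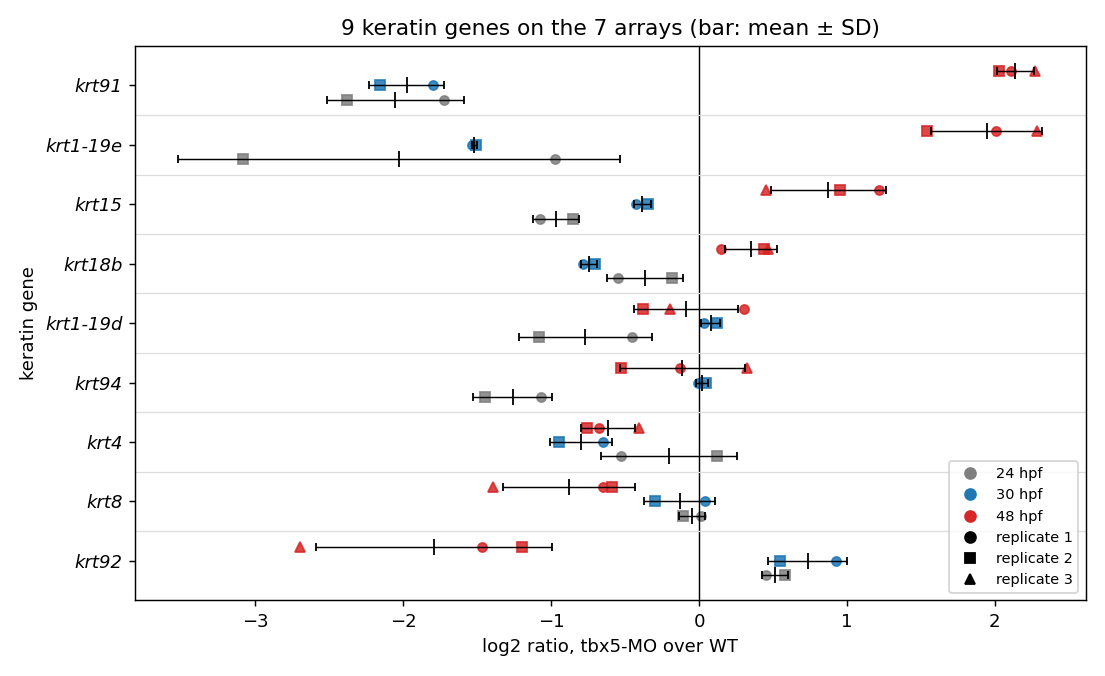
Log2 ratio of tbx5-MO over WT of each of the 9 keratins (x axis) on each of the 7 arrays, with points for arrays, coloured by stage and shaped by replicate, and bars for the mean ± SD of a stage. krt91 and krt1-19e stand at 1.54 to 2.29 at 48 hpf and at -0.97 or lower before, and krt92 stands at 0.45 to 0.92 before and at -1.20 or lower at 48 hpf.

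krt1-19e, a type I keratin used as a marker of basal keratinocytes, shared the course of krt91. Averaged over its 3 probes, the log2 ratio was -0.97 and -3.08 on the 24 hpf arrays, -1.53 and -1.51 on the 30 hpf arrays, and on the 48 hpf arrays 2.01, 1.54 and 2.29. As for krt91, the 4 earlier arrays lay below 0 and the 3 arrays of 48 hpf above it. The means were -2.03 ± 1.49 (SD, n = 2), -1.52 ± 0.02 (SD, n = 2) and 1.95 ± 0.37 (SD, n = 3). The 48 hpf mean, which the rule did not use, had an SE of 0.43 and an adjusted p of 0.826 by limma, and so did not pass the threshold of 0.05. With the prefix as a block the 48 hpf adjusted p was 0.0419, at an estimate of 3.00, in a fit by which 1.28% of all passed against 0% without the block. Only at 24 hpf do both prefixes occur, so that estimate rests on the gap between -0.97 and -3.08, the latter from an array on which the probes disagreed. Over the 6761 genes and single probes whose values recurred at most 10 times, it was 0.0667.

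The probes of krt1-19e parted most on replicate 2 of 24 hpf. At 48 hpf they gave 1.07 to 2.52 and at 30 hpf -1.89 to -0.91. On that array the probes at chr19:2810331-2810390 and chr19:2804110-2804169 had -5.12 and -3.83, whereas the probe at chr19:2804040-2804098, 11 bases from the latter, had -0.30. On replicate 1 of 24 hpf these probes had -0.51, -0.92 and -1.49, in the same order. With 2 arrays, the large SD of krt1-19e at 24 hpf reflects only the gap between their means of -0.97 and -3.08. Keratin genes are close relatives, and whether a probe also binds RNA of a related keratin was not tested.

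**Figure D2:**
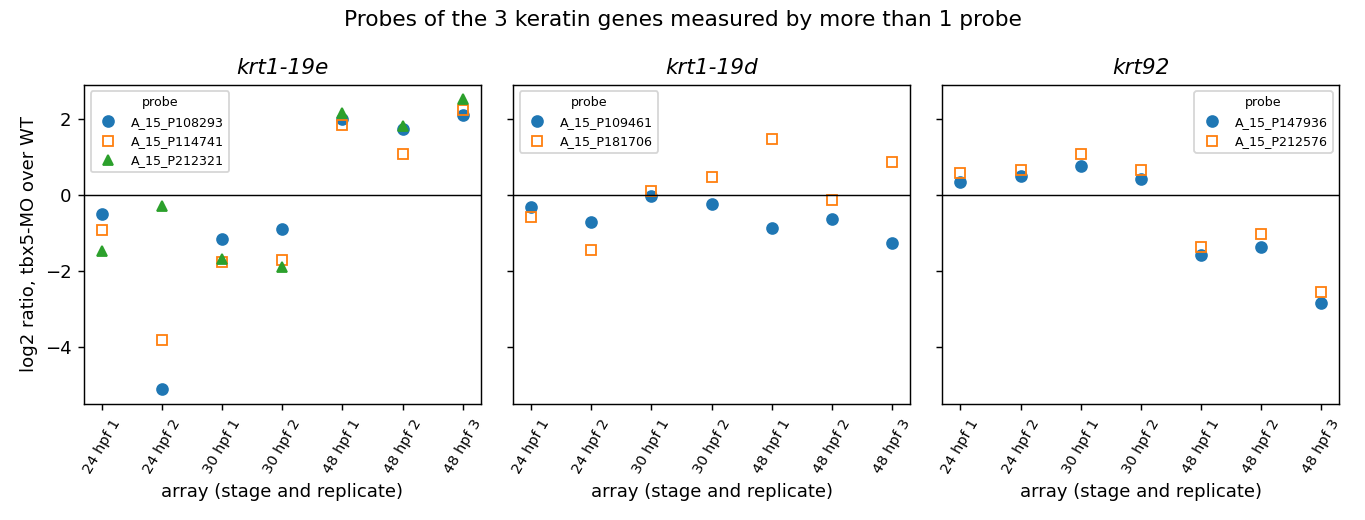
Log2 ratio of each probe of the keratins with more than 1 probe (y axis) on the 7 arrays (x axis), with 1 colour and shape for each probe of a gene. The probes of krt1-19e and of krt92 run together at 48 hpf, and those of krt1-19d lie at -1.27 to -0.63 and at -0.12 to 1.47.

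krt92, a type I keratin, went the opposite way from krt91. Its log2 ratio over 2 probes was 0.45 and 0.58 on the 24 hpf arrays, 0.92 and 0.55 on the 30 hpf arrays, and -1.47, -1.20 and -2.70 on the 48 hpf arrays. All 4 earlier arrays lay above 0 and all 3 arrays of 48 hpf, the stage whose list chose it, below it. The means were 0.52 ± 0.09 (SD, n = 2), 0.74 ± 0.27 (SD, n = 2) and -1.79 ± 0.80 (SD, n = 3). The adjusted p was 0.698 at 24 hpf and 0.720 at 30 hpf. Both probes had the same order of arrays at 48 hpf, with -1.57, -1.37 and -2.85 on one and -1.37, -1.03 and -2.55 on the other, so replicate 3 was the lowest on each.

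krt1-19e and krt92 are neighbours. In the reference table, of assembly GRCz12tu, krt1-19d, krt1-19e and krt92 follow each other on chromosome 19, and krt91 lies farther along the same row of keratin genes, next to krt17. krt1-19e minus krt92 averaged 3.74 ± 1.14 (SD, n = 3) at 48 hpf, and krt91 minus krt92 averaged 3.93 ± 0.92 (SD, n = 3). The latter was -2.18 and -2.96 on the 24 hpf arrays and -2.72 and -2.70 on the 30 hpf arrays, against 3.58, 3.23 and 4.97 on the 48 hpf arrays. krt91 and krt1-19e thus stood on the opposite side of WT from krt92 at every stage. The lists chose krt91 and krt1-19e for low values at 24 and 30 hpf, and krt92 for low values at 48 hpf. The opposite sides are therefore a description. The probes of krt1-19d, of the same row, disagreed at 48 hpf.

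**Figure D3:**
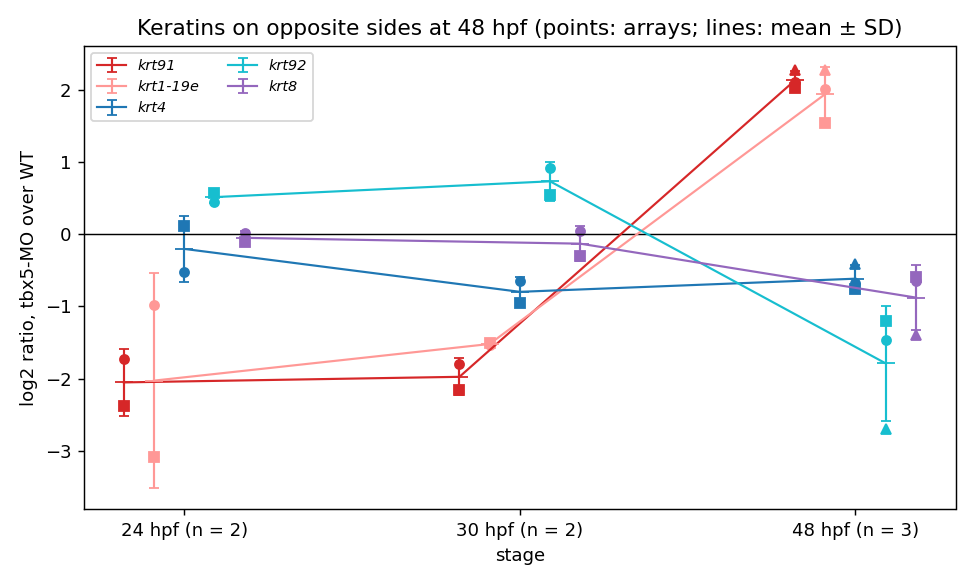
Log2 ratios (y axis) of krt91, krt1-19e, krt92, krt4 and krt8 at each stage (x axis), with points for arrays, bars for the mean ± SD and lines joining the stage means. krt91 and krt1-19e pass from below 0 to above it at 48 hpf, krt92 passes from above to below, krt4 lies below 0 on all 5 arrays of 30 and 48 hpf, and krt8 lies on both sides of 0 before 48 hpf and below it on all 3 arrays of that stage.

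krt8, a type II keratin of simple epithelia that pairs with krt18, differed little before 48 hpf. It had 0.02 and -0.11 on the 24 hpf arrays, 0.04 and -0.30 on the 30 hpf arrays, and -0.65, -0.59 and -1.39 on the 48 hpf arrays, the stage of its list. Only the 48 hpf arrays lay on 1 side of 0, and replicate 2 was just past the 1.5-fold limit. Its means were -0.05 ± 0.09 (SD, n = 2), -0.13 ± 0.24 (SD, n = 2) and -0.88 ± 0.45 (SD, n = 3), with adjusted p of 0.977 at 24 hpf and 0.974 at 30 hpf.

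krt18b is a type I partner of keratins of the krt8 kind, and it stood on the other side of WT from krt8 at 48 hpf. Its log2 ratio was -0.55 and -0.19 on the 24 hpf arrays, -0.78 and -0.70 on the 30 hpf arrays, the stage of its list, and 0.15, 0.44 and 0.47 on the 48 hpf arrays. The 48 hpf arrays lay above the 4 earlier ones without overlap, but none reached 1.5-fold. The mean of 0.35 ± 0.18 (SD, n = 3) had an adjusted p of 0.891. In the reference table krt18b and krt4 lie on chromosome 6 with 1 gene between them.

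krt15, a type I keratin, was lower before 48 hpf and higher at it. Its log2 ratio was -1.08 and -0.85 on the 24 hpf arrays, the stage of its list, -0.43 and -0.34 on the 30 hpf arrays, and 1.22, 0.95 and 0.45 on the 48 hpf arrays. The groups did not overlap. The 48 hpf mean was 0.88 ± 0.39 (SD, n = 3) with an SE of 0.29 and an adjusted p of 0.848. The difference of 48 minus 30 hpf, 1.26, used neither stage that chose it and had an adjusted p of 0.675.

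krt94, which lies in the same row of keratin genes on chromosome 11 as krt15, left WT at 24 hpf alone. It had -1.07 and -1.45 there, -0.01 and 0.05 at 30 hpf, and -0.13, -0.53 and 0.32 at 48 hpf. Only the arrays of 24 hpf, which chose it, lay on 1 side of 0, and its mean at 48 hpf was -0.11 ± 0.43 (SD, n = 3), with an adjusted p of 0.994.

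The probes of krt1-19d did not give 1 answer. Over both, the gene's 24 hpf mean was -0.77 ± 0.45 (SD, n = 2), its 30 hpf mean 0.08 ± 0.06 (SD, n = 2) and its 48 hpf mean -0.09 ± 0.35 (SD, n = 3). At 48 hpf the probe from that stage's list had -0.86, -0.63 and -1.27, and the probe from the 24 hpf list, whose values were found once, had 1.47, -0.12 and 0.88. The probes did not overlap on these arrays, so no side of WT can be given for krt1-19d at 48 hpf. On the 30 hpf arrays the probe from the 48 hpf list had -0.03 and -0.23, and the other had 0.09 and 0.47. No side can be given at 30 hpf either.

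Counts at a stage were made over keratins of which the lists of other stages held every probe. The stage's own list may hold them too. The named genes beside them follow the same rule. Left out by it are krt1-19d, krt15 and krt94 at 24 hpf, and krt1-19e, krt18b and krt4 at 30 hpf. At 48 hpf krt1-19d, krt8 and krt92 are left out. In each case the stage's own list alone held a probe of the keratin. At 48 hpf the keratins counted were 6. Of them krt91 and krt1-19e were at least 1.5-fold higher on every array. So were 1.91% of all genes and single probes and 3.21% of 3276 named genes. krt91, krt1-19e, krt15 and krt18b, 4 of 6, lay above 0 on every array, against 16.8% and 17.8%, and krt4 alone lay below, against 17.9% and 24.8%. None of the 6 was at least 1.5-fold lower on every array, against 1.86% and 3.05%. krt8 and krt92, left out of the 6, were, which is what the 48 hpf list chose them for. The median over the 6 was 0.61, beside -0.07 over the named genes. At 24 hpf, 2 of 6 were at least 1.5-fold lower on both arrays, krt91 and krt1-19e, against 7.22% of all and 11.4% of 2125 named genes. At 30 hpf, 1 of 6 was, krt91, against 6.31% and 9.43% of 2332 named genes. The list of the same stage holds each of these, so nothing is read from the counts. On both 24 hpf arrays krt91, krt1-19e and krt18b lay below 0, beside 27.3% of all and 36.8% of the named genes, and krt92 lay above, beside 26.4% and 19.6%. On both 30 hpf arrays krt91 and krt15 lay below, beside 28.7% and 35.8%, and krt92 and krt1-19d above, beside 26.5% and 26.6%. There krt1-19d lay above as a mean of probes on opposite sides of 0. The medians were -0.28 and -0.05, beside -0.15 and -0.10 over the named genes. The picks of krt91 and krt4 knew these values, so the counts are descriptions.

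Across stages, krt91 and krt1-19e, 2 of the 9 keratins, were at least 1.5-fold lower on both arrays of 30 hpf and higher on all 3 of 48 hpf, as were 127 genes and single probes or 0.294% of all. krt91, krt1-19e, krt15 and krt18b had every 48 hpf array above every earlier one, against 4.97% of all, and krt8 and krt92 had every 48 hpf array below, against 4.5%. All arrays of 30 hpf and of 48 hpf lay on opposite sides of 0 for krt91, krt1-19e, krt15, krt18b and krt92, 5 of 9, against 10.3% of all. The same 5 did so for 24 and 48 hpf, against 8.06%, and krt1-19d alone for 24 and 30 hpf, against 13.3%. For krt1-19d this held for the mean of its probes and not for each probe. The lists chose low values at some of these stages, and nothing is read from these shares.

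**Figure D4:**
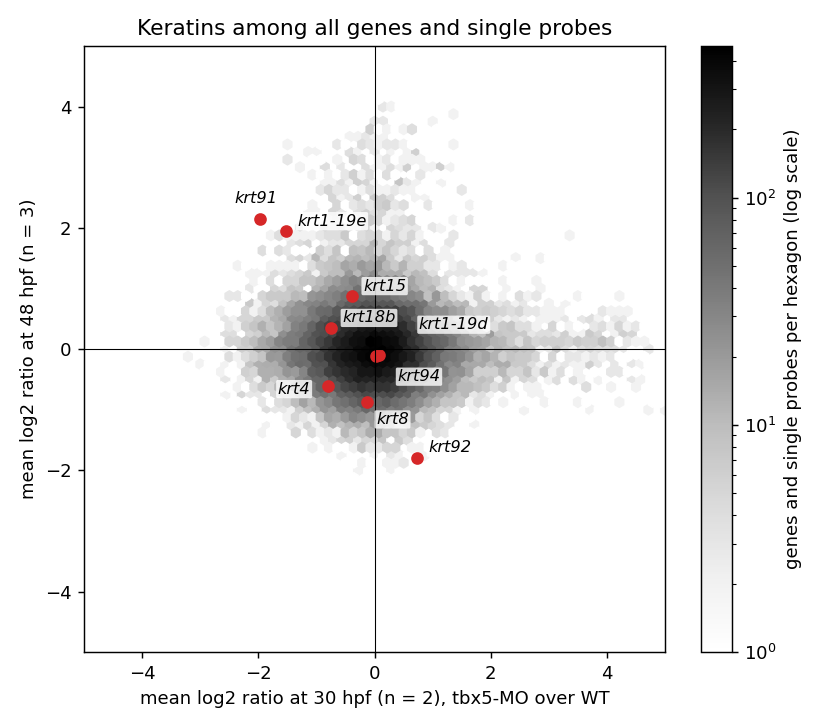
Mean log2 ratio at 30 hpf (x axis, n = 2) against that at 48 hpf (y axis, n = 3) for all genes and single probes, as grey hexagons shaded by their number on a log scale, with the 9 keratins in red and 29 points outside the axes. krt91 (-1.98 and 2.14) and krt1-19e (-1.52 and 1.95) lie at the upper left and krt92 (0.74 and -1.79) at the lower right.

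By limma with Benjamini-Hochberg adjustment over 43179 genes and single probes, none of the keratins passed 0.05 at a stage whose list does not hold them. This was 0 of 4 at 24 hpf, where 0.0301% of all passed, 0 of 5 at 30 hpf, where 0.00695% passed, and, with krt91 and krt4 left out, 0 of 4 at 48 hpf, where 0% passed. In simulated data the same fit missed nearly all changes of 2 log2 units. Not passing therefore does not show that a keratin was unchanged. At an unadjusted p under 0.05 the counts of keratins were 0, 0 and 2, and those of all features were 5204, 3538 and 2412. Whether separate pools of embryos lie behind the arrays of a stage is not stated, so these p-values measure only an array-to-array spread that may be technical. Of the 2 keratins read at 48 hpf among the 6761 with rarely shared values none passed, beside 0.725% of all. With the prefix as a block krt1-19e passed at 48 hpf, as did 1.28% of all.

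Other genes of the skin did not all stand with either set of keratins. The gene lists of the skin were chosen with earlier results of these data known, so their values are descriptions. Of 16 periderm genes that are no keratins, 4 were named through another stage's list and read at 48 hpf, and 1 lay above and 1 below 0 on every array, with a median of -0.55. grhl1, a transcription factor of the outer epidermis, was at -0.54 ± 0.15 (SD, n = 3), klf17, a transcription factor of the enveloping layer and its derivatives, at -0.58 ± 1.08 and the annexin gene anxa1a at -0.56 ± 0.86. Of 20 basal genes that are no keratins, 4 were read, with a median of -0.004, 1 above and 2 below on every array. itga6a, an integrin of the basal side of keratinocytes, was at -1.23 ± 0.22 (SD, n = 3) and stands in the 48 hpf list too, tfap2c, a transcription factor of the epidermis, was at 0.38 ± 0.35 and fras1, a basement membrane protein, at -0.19 ± 0.06. Of 31 genes of epidermal junctions 5 were read, with a median of 0.11. The claudin gene cldnb had 1.09, 1.64 and 0.92, a mean of 1.22 ± 0.38 (SD, n = 3), the tight junction gene tjp3 had 0.57 ± 0.82 and pleca, a plectin that links keratin filaments to the membrane, -0.48 ± 0.69. None of these genes passed at 48 hpf by limma, with adjusted p from 0.840 for cldnb to 0.992 for fras1, and at an unadjusted p under 0.05 there were 0 of the 4 periderm genes, 1 of the 4 basal genes, itga6a, which the 48 hpf list chose, and 1 of the 5 junction genes, cldnb, beside 2412 of all 43179 genes and single probes.

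Most of the markers read of other tissues stood on the side of krt91 and krt1-19e at 30 and 48 hpf, and fewer did at 24 hpf. At 48 hpf, 18 of 21 skeletal muscle genes, 9 of 10 lens genes, 5 of 7 genes of red blood cells and 6 of 8 neuronal genes lay above 0 on every array, with median log2 ratios of 0.82, 1.87, 1.08 and 0.74, where 16.8% of all genes and single probes did. At 30 hpf, 11 of 12 muscle genes, 2 of 3 lens genes, 4 of 4 red blood cell genes and 4 of 4 neuronal genes lay below 0 on both arrays, with medians of -1.74, -0.49, -1.62 and -1.64, where 28.7% of all did. At 24 hpf, 16 of 19 muscle genes, 4 of 8 lens genes, 4 of 6 red blood cell genes and 3 of 6 neuronal genes lay below 0 on both arrays, where 27.3% of all did, and 2 muscle and 2 lens genes lay above 0 on both. The medians there were -1.34, -0.29, -0.85 and -0.54. None of them passed by limma, while 11 muscle, 9 lens, 4 red blood cell and 3 neuronal genes had an unadjusted p under 0.05 at 48 hpf, as had 2412 of all 43179. The lists of 24 and 30 hpf hold some of these markers, such as pvalb1 and hbae3, for low values there. Nothing is therefore read from the marker counts at 24 and 30 hpf. The gene lists of these tissues were chosen with earlier results of these data known. Their counts and unadjusted p at 48 hpf are therefore descriptions. Of the named genes, 36.8% lay below 0 on both arrays at 24 hpf and 35.8% at 30 hpf. At 48 hpf, 17.8% of them lay above 0 on every array. Whether the course of these markers has a part in that of the keratins was not tested.

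The genes with the values nearest to krt91 over the 7 arrays, among 3785 named genes that are no keratins, were cryba1b, a lens crystallin, at a root mean square difference of 0.468 in log2 ratio, hbae3, an embryonic globin, at 0.487, and si:dkey-266f7.4 at 0.495, while krt1-19e, the nearest keratin, was at 0.506. The nearest to krt4 were zgc:162200 at 0.162, trim63a, a ubiquitin ligase of muscle, at 0.165 and rpl35a, a ribosomal protein gene, at 0.243, with krt8 as the nearest keratin at 0.565. Each of these genes was itself named through a list of lower probes.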

How the data were processed

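Labelled cDNA of tbx5-MO and WT embryos was hybridised to 7 Agilent zebrafish arrays. The authors' scans, normalized in GeneSpring GX, were deposited as log2 ratios, read as Cy5 over Cy3. How they were normalized, any filter on spots and the genome build were not given in the sources used here. Deposited lists of lower probes hold the same log2 ratios with gene names, and each of 6740 listed probes was placed where its values matched 1 row of the value table, which succeeded for 6662 and for all 13 keratin probes. Symbols were updated by Entrez number. Probes of 1 gene were averaged. A mean per stage was fitted over all 7 arrays with limma 3.58.1 (R 4.3.3) and tested against 0. The fit was checked on simulated data with changes of 2 log2 units, about the size seen for krt91. It recovered 0% of them at 24 hpf, 0% at 30 hpf and 5.97% at 48 hpf. A fold of 1.5 was counted without a test. Members, 9 gene lists and tests were chosen with earlier results of these data known. The text names every keratin of the lists and the 3 nearest genes to krt4 and krt91. It also names up to 3 members of each skin list that are no keratins, by largest absolute mean at 48 hpf. Alternatives were median centring, scaling to 1 median absolute deviation, each stage alone, single probes or the median probe, a threshold of 0.10, the replicate number as a block and each array left out. The prefix block, both blocks applied to keratin levels, and the limit on shared values were added after seeing the data. Figures used matplotlib 3.10.9.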

Additional observations from a re-analysis of the deposited data

Results flagged for a closer look

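For 6 keratins every array of one stage lay on one side of 0 and every array of another stage on the opposite side. The difference of the stage means in log2 ratio, 48 minus 24 hpf, was 4.19 for krt91, 3.98 for krt1-19e, 1.84 for krt15, 0.72 for krt18b and -2.31 for krt92. The difference of 48 minus 30 hpf was 4.11 for krt91, 3.47 for krt1-19e, 1.26 for krt15, 1.09 for krt18b and -2.53 for krt92. That of 30 minus 24 hpf was 0.85 for krt1-19d, whose probes lay on opposite sides of 0 at 30 hpf and disagree at 48 hpf. Such opposite sides held for 5 of 9 keratins between either earlier stage and 48 hpf, and for 1 of 9 between 24 and 30 hpf. Of all genes and single probes, they held for 8.06% between 24 and 48 hpf and 10.3% between 30 and 48 hpf. Between 24 and 30 hpf they held for 13.3%. The lists chose low values at some of these stages, so nothing is read from these counts. The 48 minus 30 hpf difference of krt15, named through the 24 hpf list alone, had an adjusted p of 0.675 by limma. No p is given for the other differences of 48 minus 30 hpf, since they use a stage whose list chose the keratin or, for krt91, values known when it was picked, and the differences from 24 hpf were not tested.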

How the results depend on the processing

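The side of 0 at 48 hpf was kept by krt91, krt1-19e, krt15, krt18b, krt4, krt8 and krt92 under each alternative run on their means, and not by krt1-19d and krt94. The keratins that kept it had every array of 48 hpf on 1 side, so leaving an array out could not change it. The replicate block could not either, since it leaves the 48 hpf means as they are. Of 219 keratin means under alternatives, 25 moved by more than the SD between arrays. Many could not move. The 63 with an array left out shift by less than the SD whatever the values. The 24 hpf means with the prefix block and the 48 hpf means with the replicate block equal those of the main fit. The median of the probes can differ from their mean only for krt1-19e. The share that moved is thus no measure of robustness. krt91 minus krt4 at 48 hpf was 3.13 with scaling to 1 median absolute deviation and 3.40 with the prefix block. The latter rests on the gap between -1.20 and -2.50 on the 24 hpf arrays, the only stage with both prefixes. With each array left out, krt91 minus krt4 was 2.73 to 2.79 and krt91 minus krt92 was 3.41 to 4.28. The number of features called at 24 and 30 hpf, 13 and 3, became 8 and 1 with scaling to 1 median absolute deviation. It became 0 and 0 with each stage alone, and 0 and 0 with the replicate block, which called 0 keratins. Whether the replicate numbers pair the arrays is not stated. The correlations of deviations were -0.009 to 0.02, which cannot settle it where arrays of 1 stage agree so weakly. At 24, 30 and 48 hpf and for 48 minus 30 hpf, the counts were 1962, 325, 553 and 808 with the prefix block and 164, 6, 49 and 59 with rarely shared values. Each array left out gave 1 to 1540, 0 to 401, 0 to 0 and 0 to 294. There the highest counts came without replicate 2 of 24 hpf and replicate 2 of 30 hpf, which left a lone array taken to vary like the other stages. Keratins called, 0 at each stage, became 2 at 24 hpf (krt91, krt1-19e) and 1 at 48 hpf (krt1-19e) with the prefix block, 1 at 24 hpf (krt91) with rarely shared values, and 0 to 1 at 24 hpf (krt1-19e, without replicate 1, where 1032 features passed on a lone array) and 0 to 0 elsewhere with each array left out. The 24 hpf list chose both keratins for low values there, so nothing is read from these 24 hpf calls. The number of arrays limits the precision, and the signal of the spots over background is unknown.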

Other observations

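A probe described in the list of 48 hpf as keratin 18 carries no gene symbol and so is not counted among the 9 keratins. Its log2 ratio was 1.22 and 1.49 on the 24 hpf arrays, -0.32 and 0.10 on the 30 hpf arrays, and on the 48 hpf arrays -0.94, -0.59 and -1.25. Both 24 hpf arrays lay above 0 and all 48 hpf arrays, which chose it, below, whereas krt18b lay on the opposite side at both stages. The probe is given on chromosome 23, the chromosome of krt8, whereas krt18b lies on chromosome 6. At 48 hpf the probe stood on the side of krt8, which the same list chose. Which gene it reads was not tested. Of 23 other intermediate filament genes, 4 were read at 48 hpf with a median of -0.02, among them lmnb1, a nuclear lamin, at 0.34 ± 0.15 (SD, n = 3), gfap of glia at -0.17 ± 0.18 and vim, vimentin, at -0.13 ± 0.24. Of 18 genes of ionocytes and mucous cells, 3 were read at 48 hpf, with a median of 0.02. The ammonia transporter gene rhcgb was at 0.37 ± 0.23 (SD, n = 3) and above 0 on every array, and atp1b1b, a sodium pump subunit, at -0.25 ± 1.09 lay on both sides of 0. None of them passed by limma. rhcgb, atp1b1b, lmnb1, gfap and vim were named here after their values were seen.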
